A study of Homo sapiens with 18 samples.

Results

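The genes described here are the spliceosomal small nuclear RNAs and 7SK: RNU5A-1, RNU5B-1, RNU4-1, RNU4-2, RNU4ATAC, RNU6ATAC, RNU11, RNU12 and RN7SK. They are 9 of the 62703 genes in the count tables, and they were chosen by an earlier reading of the same counts, in which RNU5A-1 was lower in the LP1-labelled libraries labelled gN1E than in those labelled SCR. For that reason the difference between labels in LP1 is given as a description, with no test of these 9 genes.

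The study treated the human multiple myeloma lines AMO1, LP1 and NCI-H929 (H929 below) for 48 h with locked nucleic acid gapmers, short antisense oligonucleotides that lead RNase H to a target RNA and that the cells took up without a carrier (gymnosis). The gapmer gN1E is aimed at the long noncoding RNA NEAT1, and SCR is a scrambled control. The 18 libraries were made from total RNA with a stranded kit and fall into 6 groups of 3, each a line with a label, and the members are compared between labels within a line and between lines. The labels do not say whether the 3 libraries of a group came from separate cultures. The p-values therefore measure only the spread between these libraries, which the fits moderate with that of other genes. In bulk RNA, less of an RNA in every cell cannot be told apart from less of it in some cells only.

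In AMO1 the total counts of the SCR-labelled libraries A, C and D were 56549069, 66142827 and 53227560, and those of the gN1E-labelled libraries A, C and D were 49784737, 28061606 and 29663430. In LP1 the SCR-labelled libraries A, B and D held 69937229, 64358551 and 56542997 counts, and the gN1E-labelled libraries A, B and D held 57247024, 45406587 and 44091209. In H929 the SCR-labelled libraries A, B and C held 54387667, 48902120 and 34710995 counts, and the gN1E-labelled libraries A, B and C held 56022788, 52856172 and 59302536. The letters after each label are the replicate letters of the deposited names.

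The major spliceosome removes most introns with the U1, U2, U4, U5 and U6 small nuclear RNAs, of which U4 (RNU4-1, RNU4-2) and U5 (RNU5A-1, RNU5B-1) are members here. The minor spliceosome uses U11 (RNU11), U12 (RNU12), U4atac (RNU4ATAC) and U6atac (RNU6ATAC) and shares U5 with the major one. 7SK (RN7SK) is not a splicing RNA: with LARP7, MEPCE and HEXIM1 it holds the kinase P-TEFb in an inactive complex.

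The labels go against the level of NEAT1, the RNA that gN1E is aimed at. In CPM, counts scaled to a common library size with TMM factors, NEAT1 (ENSG00000245532.11) was 81.5 ± 7.57 (SD, n = 3) in AMO1 labelled SCR and 508 ± 33.1 in AMO1 labelled gN1E. It was 165 ± 27.1 against 716 ± 95.7 in LP1 and 77.9 ± 3.89 against 525 ± 51.6 in H929, in the same order, and no library of one label overlapped the other label in any line. The exact two-sided permutation p was 0.1 in each line, the smallest that 3 against 3 libraries allows. The names inside the count tables exchange SCR with gN1E, and H929 with LP1, so every group below is called by its label.

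The lines were checked with genes that tell myeloma lines apart. FGFR3 averaged 0.131 CPM in AMO1, 1.37 in H929 and 700 in LP1 (n = 6 each), and NSD2 averaged 184, 239 and 1614. CCND2 averaged 1811 in AMO1, 1621 in H929 and 1.59 in LP1, and IGHA1 averaged 7695, 8898 and 8.11. The libraries labelled H929 were therefore nearer to those labelled AMO1 than to those labelled LP1 in FGFR3, NSD2, CCND2 and IGHA1, though above AMO1 in FGFR3 with no overlap, and apart from them in IGHG1 (1.46 in AMO1, 713 in H929, 0.145 in LP1). The 8 plasma cell markers looked at (SDC1, PRDM1, IRF4, XBP1, TNFRSF17, CD38, MZB1 and JCHAIN) were above 0 in every library, with a summed CPM of 10718 to 21281 in which SDC1 averaged 10587 in AMO1, 13041 in H929 and 1286 in LP1. NCI-H929 is known to carry a translocation that raises NSD2, so the low NSD2 of the libraries labelled H929 goes against that label. Low NSD2 alone does not say which line these libraries are, nor that the H929 and LP1 labels are exchanged. Every difference between lines below is a difference between labels, and whether the H929 and LP1 labels name the right lines is open.

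U4 and U5 each have 2 copies among the members, and a read can be given to a copy only where it covers a difference. The sequences below are those of the U4 RNAs in hg38, shown because the counts of the copies rest on these bases; capitals mark the bases at which the 2 copies differ.

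RNU4-1: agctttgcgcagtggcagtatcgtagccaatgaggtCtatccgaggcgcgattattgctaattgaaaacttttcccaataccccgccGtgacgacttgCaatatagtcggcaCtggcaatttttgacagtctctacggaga

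RNU4-2: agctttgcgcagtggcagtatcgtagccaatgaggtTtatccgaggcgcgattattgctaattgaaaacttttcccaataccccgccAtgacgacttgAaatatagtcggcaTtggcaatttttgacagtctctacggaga

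RNU4-1 and RNU4-2 are 141 bases each and differ at 4 positions, counted from 1 at the 5′ end: C37T, G88A, C99A and C113T, read from RNU4-1 to RNU4-2. They are 97.2% identical, with a longest identical stretch of 50 bases.

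RNU5A-1 (ENSG00000199568.1) lies on the plus strand of chr15, within an intron of PARP16 on the other strand, and RNU5B-1 (ENSG00000200156.1) lies on the same strand. RNU4-1 (ENSG00000200795.1, chr12:120293097-120293237) and RNU4-2 (ENSG00000202538.1, chr12:120291763-120291903) are neighbours on the minus strand. RNU4ATAC (ENSG00000264229.1, chr2:121530881-121531007, plus strand, 127 bases) lies in an intron of CLASP1 on the other strand and in an intron of CLASP1-AS1 on its own strand. RNU6ATAC (ENSG00000221676.1, chr9:134164439-134164564, minus strand) has 126 bases and no overlapping gene. All positions given are in hg38.

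The remaining 3 members lie under exons of other genes on their own strand, and a read pair on exons of more than 1 gene was not counted. RNU11 (ENSG00000274978.1, chr1:28648600-28648733, plus strand) is covered over 97.8% of its 134 bases by ENSG00000270103.3, which had 0 reads in every library. RNU12 (ENSG00000276027.1, chr22:42615244-42615393, plus strand) is covered over 100% of its 150 bases by ENSG00000270022.3, which had 62 to 220 reads per library. RN7SK (ENSG00000283293.1, chr6:52995621-52995948, plus strand) is covered over 100% of its 328 bases by a second gene record for 7SK (ENSG00000202198.1), which had 0 reads in every library.

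RNU12 and RN7SK had 0 reads in all 18 libraries, so 7 of the 9 members have values. As counting error alone, 0 reads allow up to 0.0429 CPM in the deepest library (LP1 SCR A). In the shallowest library (AMO1 gN1E C) they allow up to 0.107 CPM. These limits were scaled by total counts alone, without the TMM factors, so they are not on the scale of the other CPM values. They are limits on reads that fall on 1 gene only and say nothing of the amount of U12 or 7SK. Among 24 other short structured RNAs of the tables, 8 lie fully under an exon on their strand and all 8 had 0 reads, and of those that do not, 0 had 0 reads in every library. 7SK and U12 were therefore not measured by these counts. RNU11 had 0 to 30 reads per library, and with 131 of its 134 bases under the other exon these reads say little of the amount of U11.

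RNU5A-1, in CPM, was 21.9, 67.3 and 28.0 in AMO1 SCR A, C and D and 21.5, 66.2 and 22.2 in AMO1 gN1E A, C and D. In H929 it was 54.0, 17.7 and 97.9 in SCR A, B and C and 24.8, 32.0 and 16.6 in gN1E A, B and C. In LP1 it was 32.5, 34.6 and 31.2 in SCR A, B and D and 24.98, 19.4 and 17.6 in gN1E A, B and D. The labels overlap in AMO1, where both libraries of letter C stand above the other 4, and in H929, where SCR C and SCR A stand highest, and they do not overlap in LP1. Its 18 values rest on 688 to 4790 reads each.

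RNU5B-1, the other U5 copy, was 7.87, 19.8 and 8.76 CPM in AMO1 SCR A, C and D and 7.07, 19.6 and 6.88 in AMO1 gN1E A, C and D. In H929 it was 15.2, 4.91 and 28.5 in SCR A, B and C and 6.87, 10.8 and 5.99 in gN1E A, B and C. In LP1 it was 6.85, 8.73 and 7.29 in SCR A, B and D and 5.88, 5.39 and 5.19 in gN1E A, B and D. The libraries that were high for RNU5A-1 in AMO1 and H929 were high for RNU5B-1 too, and again only the LP1 labels do not overlap. Its values rest on 213 to 1413 reads.

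RNU4-1 was 55.0, 151 and 73.9 CPM in AMO1 SCR A, C and D and 43.8, 128 and 44.6 in AMO1 gN1E A, C and D. In H929 it was 84.1, 27.7 and 186 in SCR A, B and C and 46.4, 62.8 and 30.6 in gN1E A, B and C. In LP1 it was 48.9, 59.2 and 56.0 in SCR A, B and D and 41.9, 31.6 and 33.8 in gN1E A, B and D. H929 SCR C, AMO1 SCR C and AMO1 gN1E C are the highest 3 of the 18, and H929 SCR B is the lowest. Each value rests on 1301 to 10756 reads.

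RNU4-2 was 56.0, 156 and 75.5 CPM in AMO1 SCR A, C and D and 47.6, 125 and 45.6 in AMO1 gN1E A, C and D. In H929 it was 105, 32.0 and 218 in SCR A, B and C and 57.5, 73.8 and 37.7 in gN1E A, B and C. In LP1 it was 60.03, 73.3 and 71.3 in SCR A, B and D and 51.5, 40.6 and 43.8 in gN1E A, B and D. RNU4-2 thus had the same highest 3 and the same lowest library as RNU4-1. Its reads per library ran from 1412 to 11112.

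Of the minor spliceosome members, RNU4ATAC was 3.34, 4.51 and 3.42 CPM in AMO1 SCR A, C and D and 2.88, 4.25 and 2.65 in AMO1 gN1E A, C and D. In H929 it was 4.22, 2.97 and 5.92 in SCR A, B and C and 3.56, 2.67 and 1.95 in gN1E A, B and C. In LP1 it was 2.42, 2.47 and 2.49 in SCR A, B and D and 1.76, 2.19 and 1.81 in gN1E A, B and D. Every LP1 library lies below every AMO1 library, while H929 overlaps both lines. The reads behind RNU4ATAC number 76 to 321 per library.

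RNU6ATAC was 4.46, 13.5 and 7.94 CPM in AMO1 SCR A, C and D and 3.56, 10.8 and 3.33 in AMO1 gN1E A, C and D. In H929 it was 8.97, 2.59 and 15.5 in SCR A, B and C and 5.06, 4.60 and 1.89 in gN1E A, B and C. In LP1 it was 4.52, 5.62 and 8.17 in SCR A, B and D and 3.90, 3.401 and 3.45 in gN1E A, B and D. The highest 3 libraries are those of RNU4-1, but the lowest is H929 gN1E C. RNU6ATAC had 103 to 962 reads per library.

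RNU11 was 0.511, 0.365 and 0.214 CPM in AMO1 SCR A, C and D and 0.320, 0.332 and 0.161 in AMO1 gN1E A, C and D. In H929 it was 0.346, 0.356 and 0.0266 in SCR A, B and C and 0.159, 0.225 and 0.277 in gN1E A, B and C. In LP1 it was 0.143, 0.172 and 0.117 in SCR A, B and D and 0.148, 0 and 0.309 in gN1E A, B and D. These values rest on at most 30 reads, and H929 SCR C, where the U4 and U5 members were highest, had 1 read of RNU11. The labels of RNU11 overlap in every line.

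**Figure D1:**
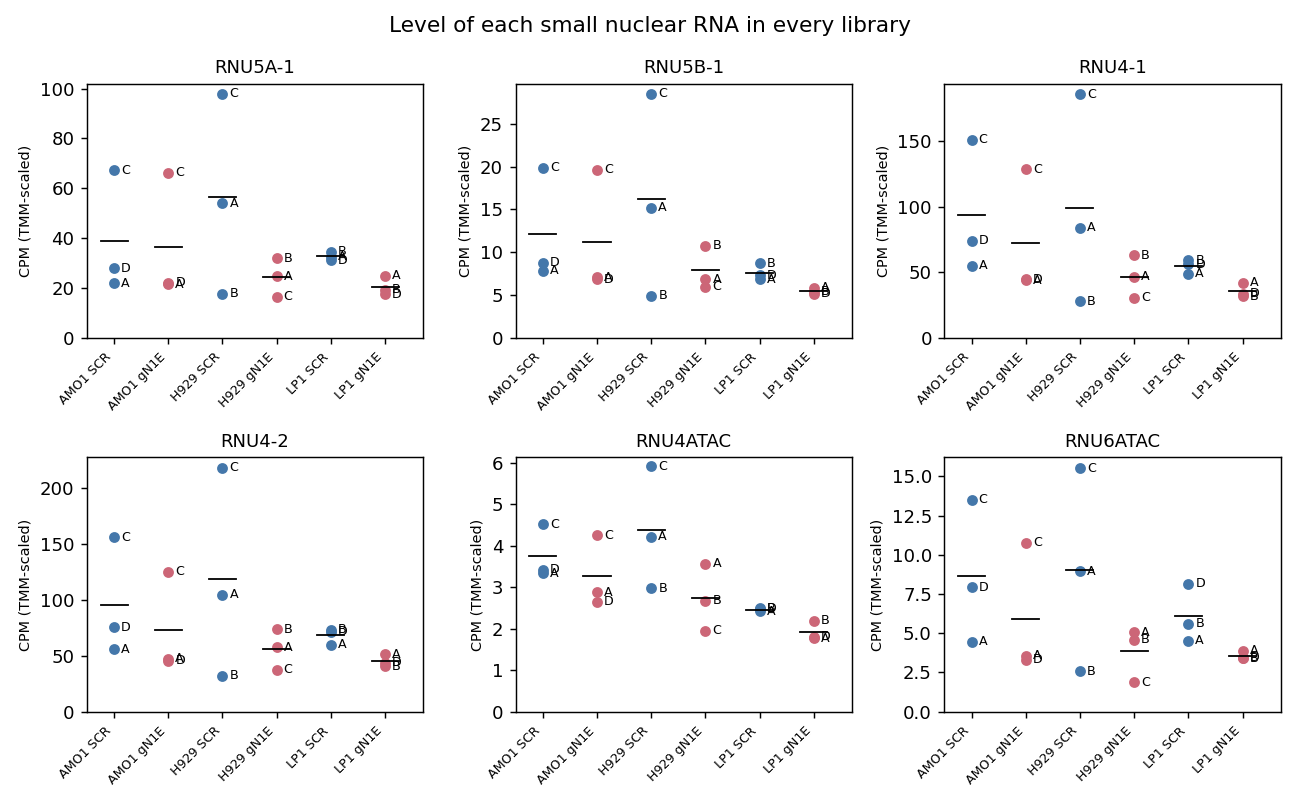
CPM of members with reads in each of the 18 libraries, by line and gapmer label. The 2 AMO1 libraries of letter C and H929 SCR C stand above the others of their lines in the U4, U5 and U6atac genes, with RNU5A-1 at 67.3, 66.2 and 97.9 CPM.

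Among the 6 members with no exon of another gene on their strand, RNU4-2 had the highest counts per kilobase of RNA, at a mean of 540 ± 340 CPM per kb (SD, n = 18), before RNU4-1 at 475 ± 314, RNU5A-1 at 302 ± 191 and RNU5B-1 at 87.0 ± 56.0. RNU6ATAC followed at 49.1 ± 30.7 and RNU4ATAC at 24.3 ± 8.57. RNU11, RNU12 and RN7SK have no place in this order, since most or all of their length could not be counted. The SDs are as large as many of the steps, but within a library the order held: RNU4-2 was above RNU4-1 in 17 of 18 libraries, RNU4-1 above RNU5A-1 in 18 and RNU5A-1 above RNU5B-1 in 18. RNU5B-1 was above RNU6ATAC in 17 libraries and RNU6ATAC above RNU4ATAC in 16. The means of RNU4-2 and RNU4-1 differ by less than the SD between libraries, but both copies share that spread. Within a library, RNU4-1 averaged 49.3% of the 2 copies in AMO1, 45.4% in H929 and 44.3% in LP1, as given below.

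The U4, U5 and U6atac genes varied widely between libraries of the same line and label in AMO1 and H929, and less in LP1. The summed CPM of the members ran from 125 to 413 in AMO1, 3.29-fold, from 88.3 to 552 in H929, 6.25-fold, and from 103 to 184 in LP1, 1.79-fold. The lowest and highest H929 libraries, SCR B and SCR C, carry the same label. The SD of log2 CPM within the 6 groups was 0.82 for RNU6ATAC, 0.77 for RNU4-1, 0.76 for RNU4-2, 0.76 for RNU5A-1, 0.72 for RNU5B-1 and 0.33 for RNU4ATAC, against a median of 0.11 over the 15434 genes that reached a mean of 1 CPM. From the largest SD down, these members ranked 12, 17, 21, 24, 28 and 1135 among those genes. For RNU5A-1 the SD within labels was 0.89 in AMO1, 0.95 in H929 and 0.19 in LP1.

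The members moved together from library to library. After the mean of each of the 6 groups was taken away, Pearson's r of the deviations over the 18 libraries was 0.998 between RNU4-1 and RNU4-2, 0.984 between RNU5A-1 and RNU5B-1, 0.989 between RNU5A-1 and RNU4-1, and 0.934 between RNU5A-1 and RNU6ATAC. RNU4ATAC followed less closely, with r from 0.809 to 0.895 with the other 5, whose own pairs ran from 0.909 to 0.998. These r are descriptions: the genes share the same libraries and depths, reads of near-identical copies can be exchanged between them, and the 3 high libraries weigh on every pair. RNU5A-1 did not follow NEAT1 within the groups (r = 0.0734).

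**Figure D2:**
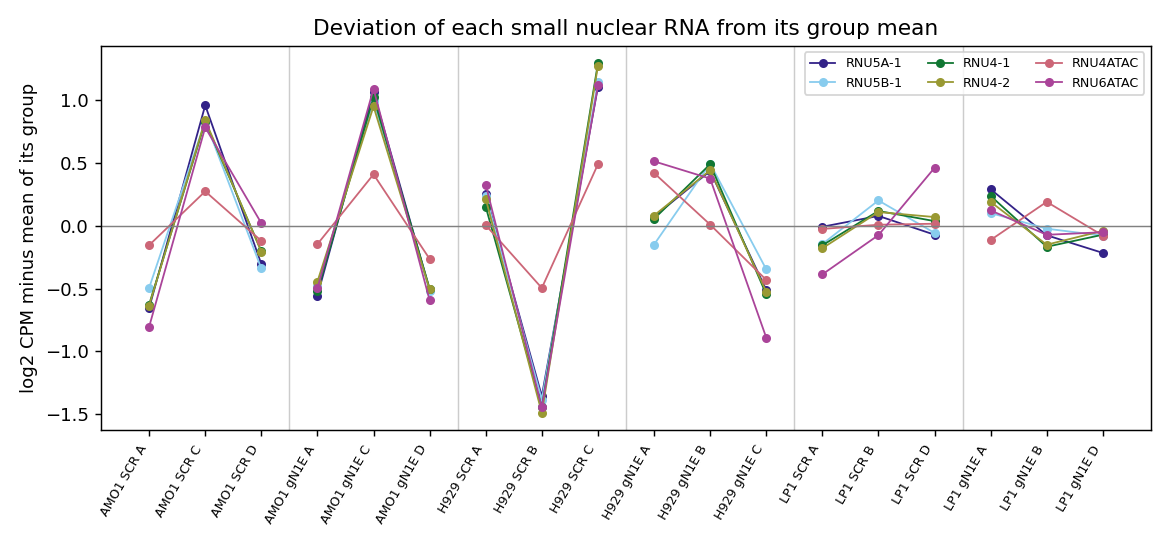
Deviation of log2 CPM from the mean of its line and label for 6 members in the 18 libraries. The lines of the U4, U5 and U6atac genes lie on each other, with r from 0.909 to 0.998, and that of RNU4ATAC keeps closer to 0, with a within-group SD of 0.33.

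Among 13848 other named genes that reached a mean of 1 CPM, those most like RNU5A-1 in level over the 18 libraries were SNORA7B (r = 0.885), TALAM1 (0.871), RPL23P8 (0.864), SNORA54 (0.863) and RNY1 (0.862). After the group means were taken away, those most like RNU5A-1 were RNY1 (0.971), RNVU1-31 (0.965), RPL23P8 (0.954), RNU5A-8P (0.939) and RNU5F-1 (0.939). RNU5A-8P and RNU5F-1 are further genes of the U5 family, RNVU1-31 is a variant U1 gene and RNY1 is a Y RNA of 113 bases. Other short structured RNAs did not all follow RNU5A-1 within the groups, since r was 0.926 for SNORD13 but -0.592 for RMRP and -0.683 for RN7SL1, genes named after their values were seen.

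The share of all counts that fell on other genes of at most 200 bases, with the members left out, also differed between the libraries, by less than the members did. It was 0.172% in AMO1 SCR C and 0.167% in AMO1 gN1E C, the libraries in which RNU5A-1 was highest in that line, and 0.142% to 0.158% in the other AMO1 libraries. In H929 it was 0.162% in SCR C, where the members were highest, and 0.123% in SCR B, where they summed lowest. In LP1 it kept between 0.0805% and 0.0839%. Whether the members' spread comes from how short RNA was kept during library making or from the cells was not tested.

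AMO1, gN1E against SCR. The question is whether the members differ with the gapmer label in AMO1. Every one of the 7 tested members had a log2 difference below 0 (gN1E minus SCR), and none passed the test. Of all 22933 genes tested, 2.06% (473) were called at an adjusted p under 0.05, a count of 261 without SCR D, 288 without gN1E C and 254 without gN1E D. By edgeR 0 of 7 members were called and 0 had an unadjusted p under 0.05, DESeq2 called 0 and limma-voom called 0.

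The log2 difference in AMO1 was -0.09 (SE 0.74) for RNU5A-1, -0.13 (0.66) for RNU5B-1, -0.36 (0.68) for RNU4-1, -0.38 (0.65) for RNU4-2, -0.21 (0.18) for RNU4ATAC, -0.58 (0.71) for RNU6ATAC and -0.39 (0.45) for RNU11. Their median was -0.36, against -0.02 over all genes. The 95% interval of RNU5A-1 ran from -2.09 to 1.92, so neither a higher nor a lower level of it was shown. The values turn on single libraries. Without SCR C they were 0.56 for RNU5A-1, 0.42 for RNU5B-1, 0.17 for RNU4-1 and 0.16 for RNU4-2, without gN1E A they were 0.20 for RNU5A-1 and 0.14 for RNU5B-1, and without gN1E D 0.17 and 0.11. Without gN1E C, RNU5A-1 was -0.83, RNU5B-1 -0.80, RNU4-1 -1.07 and RNU4-2 -1.03. With 1 library left out at a time, RNU6ATAC ran from -1.32 (without gN1E C) to -0.09 (without SCR C), RNU4ATAC from -0.44 to -0.05 without the same libraries, and RNU11 from -0.64 (without SCR D) to -0.07 (without SCR A). For no member did the 3 libraries of 1 label keep clear of the other (0 of 7), as they did for 16.9% of all genes.

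The replicate letters of AMO1 pair a gN1E library with an SCR library, and both libraries of letter C were high. With the letter as a block, an alternative to the fit above, 3 of 7 members were called lower in gN1E, where 6.08% of all genes were called. RNU4-1 differed by -0.40 (SE 0.08, adjusted p 0.0199), RNU4-2 by -0.40 (0.08, 0.0110) and RNU6ATAC by -0.58 (0.14, 0.0132), each lower in 3 of 3 letters. With only 3 letters, these SEs and p-values lean on the spread of other genes. They are not a measure of how far the members' own letter differences spread. Over all alternatives to the fit without the block, the adjusted p ran from 0.0199 to 0.988 for RNU4-1, from 0.0110 to 0.981 for RNU4-2 and from 0.0132 to 0.975 for RNU6ATAC. RNU5A-1 was not called with the block (-0.10, SE 0.06, adjusted p 0.444), with letter differences of -0.03 (A), -0.02 (C) and -0.33 (D), nor was RNU5B-1 (-0.14, adjusted p 0.485).

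The letter differences (gN1E minus SCR, in log2) were -0.33, -0.24 and -0.73 for RNU4-1, -0.24, -0.32 and -0.73 for RNU4-2 and -0.33, -0.32 and -1.26 for RNU6ATAC in A, C and D, so letter D gave the largest of each. Those of RNU5B-1 (-0.15, -0.01 and -0.35) and RNU4ATAC (-0.21, -0.09 and -0.37) were also below 0, and neither gene was called with the block. RNU4-1 and RNU4-2 are near-identical copies and do not count as separate observations. Whether libraries of a letter belong together rests on a correlation of their deviations of only 0.143 (A), 0.124 (C) and 0.117 (D) across 15434 genes, which are not independent replicates. When both libraries of letter C were left out instead, a choice made after the members' levels were seen, 1 of 7 was called, RNU4-1 at -0.54 (adjusted p 0.0357). Of all genes, 283 were called higher and 122 lower in that fit.

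H929, gN1E against SCR. The question is the same in H929. All 7 members again had a log2 difference below 0, for 6 of them of larger size than in AMO1, and none passed the test. Of all 23499 genes tested, 5.47% (1286) were called, a count of 709 without SCR A and 701 without gN1E B. edgeR called 0 of 7 members and gave 0 an unadjusted p under 0.05, DESeq2 called 0 and limma-voom called 0.

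In H929 the log2 difference was -1.22 (SE 0.73, adjusted p 0.501) for RNU5A-1, -1.04 (0.73) for RNU5B-1, -1.10 (0.80) for RNU4-1, -1.08 (0.80) for RNU4-2, -0.68 (0.34) for RNU4ATAC, -1.23 (0.81) for RNU6ATAC and -0.22 (0.54) for RNU11. The median was -1.08, against -0.01 over all genes, and SCR A and C but not SCR B stood above the gN1E libraries in RNU5A-1. Over the alternatives RNU5A-1 ran from -1.65 (without SCR B) to -0.57 (without SCR C), with adjusted p from 0.225 to 0.779. Without SCR C, RNU5B-1 was -0.38, RNU4-1 -0.28, RNU4-2 -0.30, RNU4ATAC -0.41 and RNU6ATAC -0.62. RNU11 was 0.10 without SCR A and 0.09 without SCR B. The labels overlapped for every member, so 0 of 7 kept clear of each other, against 21.8% of all genes. With no filter on low counts RNU4ATAC was called at -0.67 (adjusted p 0.000715), beside 1113 genes called higher and 516 lower in that fit.

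Whether the label effect differs between H929 and AMO1 was tested as an interaction. edgeR called 0% of 26436 genes (5 genes without AMO1 SCR C, 5 without AMO1 gN1E A and 48 with no filter on low counts) and 0 of 7 members, 1771 of all genes and 0 members had an unadjusted p under 0.05, and DESeq2, which called 5 of all genes, and limma-voom each called 0 members. RNU5A-1 had the largest value, -1.11 (H929 minus AMO1, SE 0.86, adjusted p 0.869), with a 95% interval from -2.99 to 0.77. With 1 library left out, that value ran from -1.76 (without AMO1 SCR C) to -0.36 (without AMO1 gN1E C). The values for RNU4-1 (-0.72) and RNU4-2 (-0.68) were 0.10 and 0.11 without H929 SCR C, and that for RNU6ATAC (-0.63) was 0.11 without AMO1 gN1E C. RNU11 (0.18) was below 0 without H929 SCR C (-0.27), AMO1 SCR A (-0.12), AMO1 gN1E D (-0.05) or H929 gN1E C (-0.02). This fit leaves out the replicate letters of AMO1. Without them the label effects of the members in the 2 lines cannot be told apart.

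LP1, gN1E against SCR, as a description. RNU5A-1 in these libraries is what the members were chosen on, so the values of all members here carry no test. Of all 23165 genes, 1.43% (332) were called in this comparison, a count of 123, 87 and 780 without SCR A, B and D and of 143, 176 and 202 without gN1E A, B and D, and nothing is read from that share for the members. RNU5A-1 was lower in gN1E by 0.64 in log2, or 0.640 times its SCR level. The others were -0.45 for RNU5B-1, -0.59 for RNU4-1, -0.57 for RNU4-2, -0.34 for RNU4ATAC, -0.74 for RNU6ATAC and 0.10 for RNU11, which is -0.81 without gN1E D. RNU6ATAC was -0.47 without SCR D.

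In LP1, 6 of 7 members had all 3 gN1E libraries below all 3 SCR libraries, as 10.2% of all genes did. Since RNU5A-1 in LP1 is what the members were chosen on and the others move with it, nothing is read from this count. Side by side, the medians of the 7 members were -0.57 in LP1, -0.36 in AMO1 and -1.08 in H929. The mean of RNU5A-1 was 32.8 ± 1.71 CPM in LP1 labelled SCR and 20.6 ± 3.87 labelled gN1E (SD, n = 3), against 39.1 ± 24.6 and 36.7 ± 25.6 in AMO1 and 56.6 ± 40.2 and 24.5 ± 7.71 in H929. The H929 difference in RNU5A-1 exceeds the LP1 one in size (-1.22 and -0.64) only with SCR C, without which it was -0.57. The difference in spread between the lines was not tested.

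**Figure D3:**
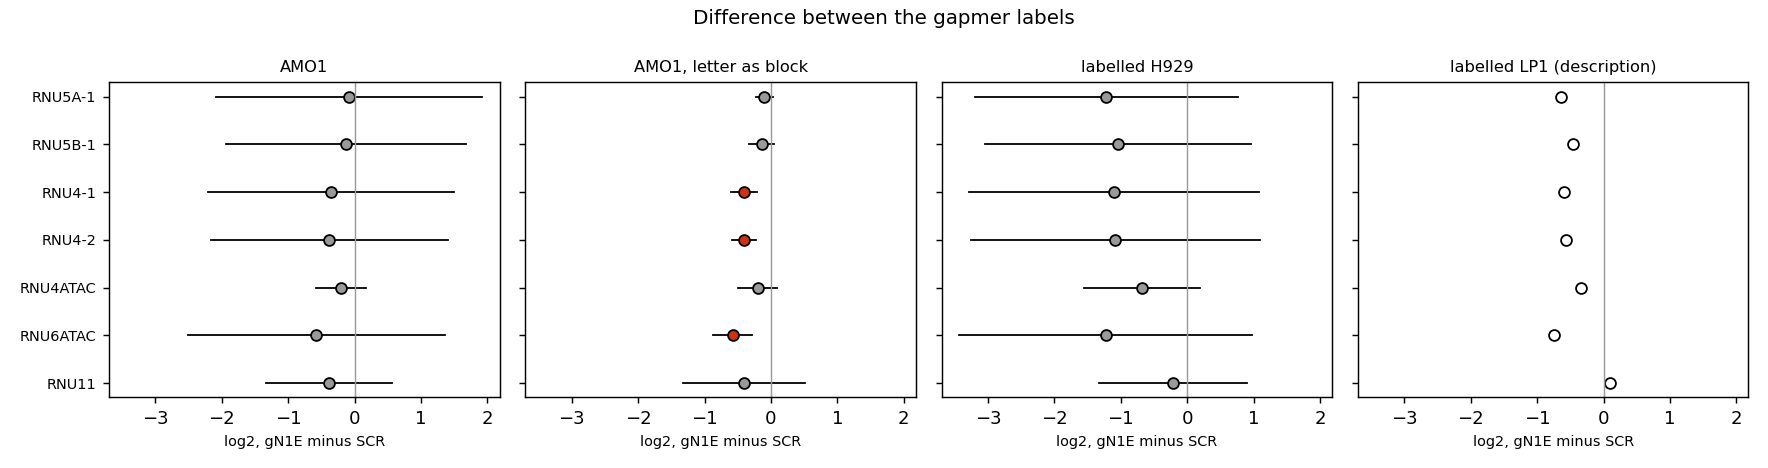
Log2 difference gN1E minus SCR for the 7 members in each line, with 95% intervals in AMO1 and H929 and open points with no interval in LP1, where the values are a description. Every point except RNU11 in LP1 lies below 0. In the fits without the replicate letter as a block, the AMO1 and H929 intervals of all members cross 0.

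H929 against AMO1, mean of both labels. All 7 members had a log2 difference below 0, of at most 0.43 in size, and none passed the test. Of all 26436 genes tested, 44.4% were called, and edgeR called 0 of 7 members with 0 at an unadjusted p under 0.05, as DESeq2 and limma-voom called 0 each. The log2 difference (H929 minus AMO1) was -0.05 (SE 0.43) for RNU5A-1, -0.07 (0.41) for RNU5B-1, -0.30 (0.44) for RNU4-1, -0.06 (0.43) for RNU4-2, -0.05 (0.16) for RNU4ATAC, -0.30 (0.46) for RNU6ATAC and -0.43 (0.42) for RNU11. The median of 0.07 below AMO1 stands beside a median of 0 over all genes.

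Directions between H929 and AMO1 are not settled for 6 of these members. In the SCR libraries alone RNU5A-1 was 0.52, RNU5B-1 0.38, RNU4-1 0.08, RNU4-2 0.29, RNU4ATAC 0.19 and RNU6ATAC 0.02. Without AMO1 gN1E C they were 0.32, 0.26, 0.06, 0.27, 0.07 and 0.07 in that order. RNU5A-1, RNU5B-1, RNU4-2 and RNU4ATAC were also above 0 without AMO1 SCR C (0.27, 0.20, 0.21 and 0.03), without H929 SCR B (0.16, 0.15, 0.17 and 0.06) and without H929 gN1E C (0.06, 0.01, 0.05 and 0.05). RNU11 kept its direction, from -0.60 to -0.14 over its alternatives.

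LP1 against AMO1, mean of both labels. All 7 members had a log2 difference below 0 (LP1 minus AMO1), and 2 passed the test, RNU4ATAC and RNU11, a smaller share than the 75.9% of all genes that were called. Without the 3 libraries in which the members were highest (AMO1 SCR C, AMO1 gN1E C and H929 SCR C), RNU5A-1 was 0.15, RNU4-2 0.000285 and RNU6ATAC 0.00803. That choice was made after the levels were seen and takes out high AMO1 libraries and none of LP1, so it bears on these values by itself. With 1 library left out at a time all 3 kept below 0 in 18 of 18 fits, at most -0.17, -0.27 and -0.23. The calls are 2 among very many between these lines, and that of RNU11 is on reads that say little of the amount of U11. edgeR, DESeq2 and limma-voom each called 2 members. Of 20054 genes called, 10031 were lower in LP1.

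RNU4ATAC was lower in LP1 than in AMO1 by 0.69 in log2 (SE 0.17, adjusted p 0.000926), with all 6 LP1 libraries below all 6 AMO1 libraries and means of 2.19 ± 0.332 and 3.51 ± 0.738 CPM (SD, n = 6). It was called in 28 of 28 alternatives, with values from -0.88 to -0.50 and adjusted p from 9.65e-09 to 0.00818, and without those 3 libraries it was -0.50. The share of counts on other genes of at most 200 bases was also lower in LP1 (0.0805% to 0.0839%) than in AMO1 (0.142% to 0.172%). Whether the RNU4ATAC difference goes beyond that of short genes was not tested. RNU11 was lower by 1.08 (SE 0.45, adjusted p 0.0304), at 0.148 ± 0.0995 against 0.317 ± 0.122 CPM, with overlapping libraries and at most 30 reads. RNU11 was called in 20 of 28 alternatives, with adjusted p from 0.00581 to 0.244. Its call was lost without AMO1 SCR A (-0.93, adjusted p 0.0764), AMO1 gN1E A (-0.999, 0.0761), AMO1 gN1E C (-1.01, 0.0616), LP1 SCR A (-1.08, 0.0519), LP1 SCR D (-1.02, 0.0559), LP1 gN1E A (-1.07, 0.0555) or LP1 gN1E B (-0.81, 0.0681).

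The U4, U5 and U6atac values of LP1 minus AMO1 were -0.54 (SE 0.44) for RNU5A-1, -0.85 (0.43) for RNU5B-1, -0.90 (0.44) for RNU4-1, -0.59 (0.43) for RNU4-2 and -0.61 (0.47) for RNU6ATAC, and none passed the test. Without AMO1 gN1E C alone they were -0.17, -0.52, -0.54, -0.27 and -0.23 in that order, and without AMO1 SCR C RNU5A-1 was -0.22, RNU4-2 -0.32 and RNU6ATAC -0.37. RNU5B-1 (adjusted p 0.0417) and RNU4-1 (0.0400) were called when H929 SCR B, a library of neither line, was left out of the joint fit, where their values were still -0.85 and -0.90. With library size only as the scaling, RNU5B-1 was -1.04 (adjusted p 0.0454) and RNU4-1 -1.09 (0.0436), and that scaling lowers the median of all genes by 0.18 in LP1 minus AMO1 and by 0.19 in LP1 minus H929. No scaling changed the direction of a member in either comparison with LP1. Over the alternatives the adjusted p of RNU5B-1 ran from 0.0417 to 0.485 and that of RNU4-1 from 0.0400 to 0.430.

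LP1 against H929, mean of both labels. All 7 members again had a log2 difference below 0 and 1 passed the test, beside 74.6% of all genes. RNU4ATAC was lower by 0.65 (SE 0.17, adjusted p 0.00165), with means of 2.19 ± 0.332 CPM in LP1 and 3.55 ± 1.39 in H929 (SD, n = 6). The libraries of RNU4ATAC overlap between these lines by H929 gN1E C (1.95), the 1 H929 library within the LP1 range. It was called in 28 of 28 alternatives, with values from -0.84 to -0.49 and adjusted p up to 0.0435. The share of counts on other genes of at most 200 bases was lower in LP1 than in H929 too (0.123% to 0.162% in H929). DESeq2 and limma-voom each called 1 member.

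The other values of LP1 minus H929 were -0.49 (SE 0.44) for RNU5A-1, -0.78 (0.43) for RNU5B-1, -0.60 (0.44) for RNU4-1, -0.54 (0.43) for RNU4-2, -0.31 (0.47) for RNU6ATAC and -0.65 (0.45) for RNU11. RNU11 was called without LP1 gN1E D (-1.10, adjusted p 0.0461, against a range of 0.0461 to 0.483 over its alternatives), and RNU5B-1 without H929 SCR B (-0.997, adjusted p 0.0250, against 0.0250 to 0.409). Without LP1 gN1E B, RNU11 was -0.39. Without H929 SCR C, RNU5A-1 was -0.17, RNU5B-1 -0.45, RNU4-1 -0.19, RNU4-2 -0.14 and RNU6ATAC 0.00. The LP1 comparisons share the LP1 libraries, so a like value in both is not a second observation.

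**Figure D4:**
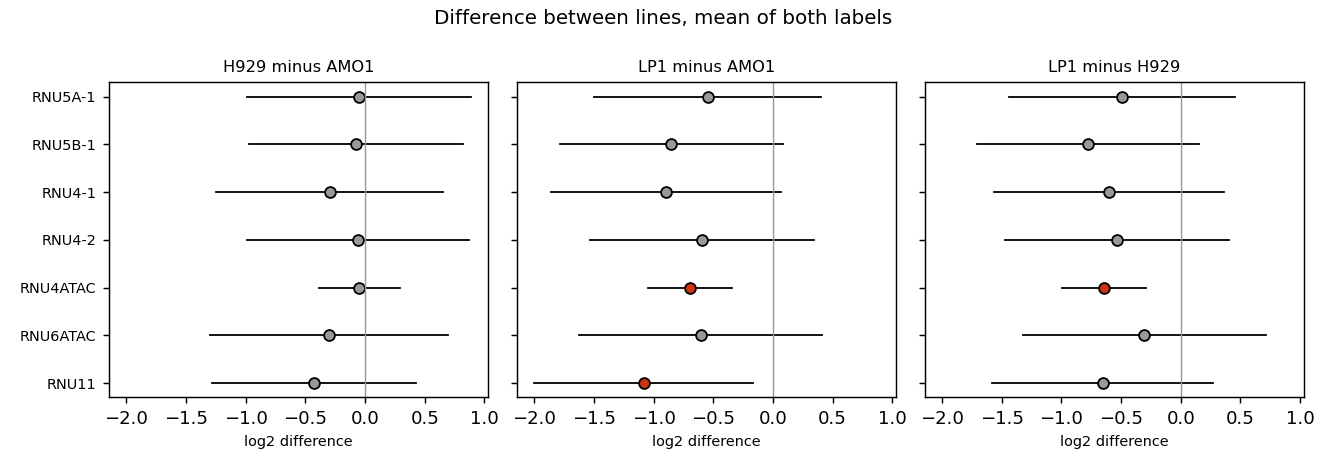
Log2 difference between lines, as the mean of both labels, for the 7 members with 95% intervals. RNU4ATAC lies below 0 in LP1 minus AMO1 (-0.69) and in LP1 minus H929 (-0.65), and the intervals of the U4, U5 and U6atac genes cross 0 in all 3 comparisons.

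The share of each copy within U4 and U5 is a ratio within a library, so a rise or fall of both copies alike leaves it unchanged. It was noticed in these data and added after they were seen, so it is given with no test. RNU4-1 made up 49.3% ± 0.838 of RNU4-1 plus RNU4-2 in AMO1, 45.4% ± 0.815 in H929 and 44.3% ± 0.606 in LP1 (SD, n = 6). The AMO1 libraries ran from 47.9% to 50.6%, above all H929 libraries (44.5% to 46.4%) and all LP1 libraries (43.5% to 44.9%), while H929 and LP1 overlap. H929 was 3.96 points below AMO1, LP1 was 5.07 points below AMO1 and 1.11 points below H929.

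These shares of RNU4-1 held across the labels, at -3.75 points in the SCR libraries and -4.17 in the gN1E libraries for H929 minus AMO1. For LP1 minus AMO1 they were -4.87 and -5.27. In AMO1 SCR C and H929 SCR C, where U4 was highest in each line, the share of RNU4-1 was 49.2% (95% Wilson interval 48.5% to 49.8%) and 46.0% (45.2% to 46.8%), near the mean of its line. In AMO1 gN1E C, also high in U4, the share was 50.6% (49.4% to 51.7%), the top of the AMO1 range. The intervals cover counting error only, since read pairs are not independent molecules.

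RNU5B-1 made up 24.1% ± 1.36 of RNU5B-1 plus RNU5A-1 in AMO1, 23.3% ± 2.10 in H929 and 20.0% ± 1.99 in LP1 (SD, n = 6). Its range was 22.8% to 26.4% in AMO1, 21.7% to 26.6% in H929 and 17.4% to 22.8% in LP1, so H929 overlaps both lines and the highest LP1 library, gN1E D at 22.8%, meets the lowest AMO1 library, SCR C at 22.8%. H929 minus AMO1 was -0.776 points, but -2.28 points in the SCR libraries and 0.732 in the gN1E libraries. LP1 was 4.02 points below AMO1 (LP1 minus AMO1 -5.51 in the SCR libraries and -2.54 in the gN1E libraries) and 3.25 points below H929. Which bases of the copies the reads covered is not in gene counts, and whether the shares differ by expression or by sequence in the lines was not tested.

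**Figure D5:**
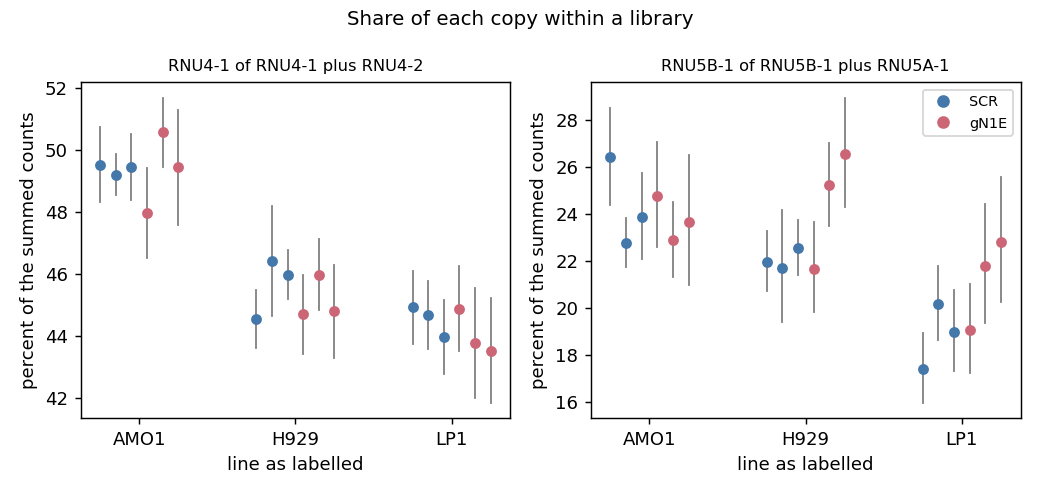
Percent of RNU4-1 in RNU4-1 plus RNU4-2, and of RNU5B-1 in RNU5B-1 plus RNU5A-1, in each library by line, with 95% Wilson intervals. All 6 AMO1 libraries lie above the 12 others for RNU4-1, at 47.9% to 50.6%, and the RNU5B-1 shares of the lines overlap.

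Beside the members, 1668 other genes of the U1, U2, U5, U6 and U7 families are listed in the tables, most of them copies with few reads. By label, edgeR called 0 of 236 in AMO1 (7 at an unadjusted p under 0.05) and 0 of 212 in H929 (6), and DESeq2 and limma-voom called 0, as for the members. Over all genes edgeR called 2.06% in AMO1 and 5.47% in H929, with 2803 of 22933 and 4156 of 23499 at an unadjusted p under 0.05. With the replicate letter as a block in AMO1, 1 of 236 was called, RNVU1-22 at -0.42, beside 6.08% of all genes. Between lines, 11 were higher and 30 lower of 266 in H929 minus AMO1 (median -0.20), 27 and 112 in LP1 minus AMO1 (median -0.56), and 30 and 80 in LP1 minus H929 (median -0.35). These calls are 15.4%, 52.3% and 41.4% of the family, below the 44.4%, 75.9% and 74.6% of all genes. Medians over all genes were 0, -0.02 and -0.05. The LP1 medians of the members, -0.69 and -0.60, lie on the same side as those of this family.

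The variant U1 gene RNVU1-28 (ENSG00000277918.1) ran from 164 to 176 CPM in AMO1, from 117 to 137 in H929 and from 0.364 to 0.619 in LP1 (15 to 35 reads), with a log2 difference of -8.36 in LP1 minus AMO1. RNVU1-31, which followed RNU5A-1 within groups, averaged 119 CPM in AMO1, 94.5 in H929 and 16.3 in LP1. RNU5F-1 averaged 10.4, 7.12 and 2.33 CPM, and RNU5D-1 5.55, 4.41 and 1.59, so these U5 variants were lowest in LP1 by their means. These genes were named after their values were seen.

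Of 15 tested short structured RNAs outside the spliceosome, edgeR, DESeq2 and limma-voom called 0 by label in AMO1 and in H929 (0 and 3 at an unadjusted p under 0.05 by edgeR), beside the 2.06% and 5.47% of all genes that edgeR called. Over all genes, 2803 of 22933 and 4156 of 23499 had an unadjusted p under 0.05 by edgeR. With the replicate letter as a block in AMO1, 2 of 15 were called lower in gN1E, RMRP at -0.16 and SNORA73B at -0.15, beside 6.08% of all genes. Between lines 2 were higher and 7 lower in LP1 minus AMO1, 3 and 7 in LP1 minus H929, and 0 and 2 in H929 minus AMO1, or 60%, 66.7% and 13.3% of the list beside 75.9%, 74.6% and 44.4% of all genes. RN7SL1, the most abundant, averaged 9362 CPM in AMO1, 8715 in H929 and 19399 in LP1, so LP1 was highest, where RNU4ATAC was lowest. RMRP averaged 2240, 2072 and 2556, and SNORD13 80.4, 61.3 and 38.7. RNY1, most like RNU5A-1 within the groups, averaged 35.6, 47.8 and 20.7.

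Genes for proteins that bind, assemble or transcribe small nuclear RNAs gave few calls by label. In AMO1 edgeR called 0 of them, with 4 of 17 U5 and U4/U6 genes, 0 of 7 genes of the 7SK complex and P-TEFb, 2 of 14 Sm and LSm genes, 0 of 12 minor spliceosome genes, 3 of 27 transcription and 3′ end genes and 5 of 21 assembly genes at an unadjusted p under 0.05, limma-voom called 0, and DESeq2 called SNAPC4 alone. Of all 22933 genes, edgeR called 2.06% and 2803 had an unadjusted p under 0.05. With the replicate letter as a block, edgeR called SART3 (0.18) and SART1 (-0.24) of the 17, and SNAPC4 (-0.33) and INTS1 (-0.22) of the 27, beside 6.08% of all genes.

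In H929, where 5.47% of all 23499 genes were called and 4156 had an unadjusted p under 0.05, HEXIM1, of the 7SK complex, fell by 0.27 (gN1E minus SCR, adjusted p 0.00416) and was the 1 call among 7 genes of that complex and P-TEFb. SNU13, which binds U4, rose by 0.19 (adjusted p 0.0282) as the 1 call of 17 genes for U5 and U4/U6 proteins, and was called by DESeq2 but not by limma-voom, while both called HEXIM1. ELL rose by 0.22 (adjusted p 0.00852) as the 1 call of 27 transcription and 3′ end genes, and WDR77 by 0.28 (0.00322) as the 1 call of 21 assembly genes. Both were called by the 3 tools, and DESeq2 also called POU2F1 and GEMIN4. At an unadjusted p under 0.05 were 2 of the 7, 6 of the 17, 7 of the 27 and 7 of the 21 genes of these lists. The 14 Sm and LSm genes and the 12 minor spliceosome genes gave 0 calls by the 3 tools, with 2 of each list at an unadjusted p under 0.05. The interaction with AMO1 was called for 0 genes of these lists by the 3 tools, with HEXIM1 at -0.29 (adjusted p 0.629), so a difference between the lines was not shown.

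Between LP1 and AMO1 the lists of protein genes were called at 78.6% to 100%, beside 75.9% of all genes. For the 7SK complex and P-TEFb 4 were higher and 3 lower of 7, with LARP7, which binds the end of 7SK, at -0.72 (adjusted p 1.10e-11) and CDK9 at 0.83 (2.24e-18). Of the 17 genes for U5 and U4/U6 proteins 11 were higher and 6 lower, of the 14 Sm and LSm genes 5 and 6, and of the 12 minor spliceosome genes, whose RNA partners include RNU4ATAC and RNU11, 4 and 6. Of 27 genes for transcription and 3′ end formation of small nuclear RNAs 18 were higher and 7 lower, and of 21 assembly genes 10 and 8, among them PHAX, which carries small nuclear RNA out of the nucleus, at 2.15 (adjusted p 2.82e-26). The directions within each list are mixed.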

How the data were processed

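The authors deposited raw read-pair counts per gene, unnormalized and by strand, from STAR 2.7.10a alignments to hg38, counted by featureCounts 1.6.4 with the GENCODE 43 annotation. Of 62703 identifiers in each table, 62686 matched a symbol. The members and lists were chosen with earlier results of these data known. Tests were edgeR 4.0.16 in R 4.3.3: TMM, robust quasi-likelihood fit, and Benjamini-Hochberg adjustment over every gene tested, called under 0.05. A gene was tested where any library of the fit had 10 reads or more. Label comparisons were fitted within a line, while line comparisons and the interaction came from 1 fit with 6 group means to all 18 libraries. DESeq2 1.42.0 and limma-voom (limma 3.58.1) were alternatives. Correlations used log2 CPM with a prior count of 2. Apart from the members and the genes most like RNU5A-1, genes are named as the most abundant or called of their list, or because they overlap a member. Replicate letters were tried as a block. The correlation of deviations between libraries of a letter was over 0.1 for every letter in AMO1 only, and it depends on the genes used. Figures used matplotlib 3.10.9 and pandas 2.3.3 in Python 3.11.15.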

Additional observations from a re-analysis of the deposited data

How the results depend on the processing

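Changes of setting were tried for every count of members called and every member's value. The cause of each shift was not tested.

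Members called by label in AMO1 were 0 in the main fit, 3 with the replicate block (RNU4-1 -0.40, RNU4-2 -0.40, RNU6ATAC -0.58) and 1 without both libraries of letter C, a choice added after the data were seen. Of all genes, 2.06% were called in the main fit and 6.08% with the block. Without both libraries of letter C, 283 genes were called higher and 122 lower. In H929 the members called were 0, with 0 in the replicate block and 1 with no filter on low counts (RNU4ATAC -0.67). Of all genes in H929, 5.47% were called in the main fit and 3.96% with the block. With no filter, 1113 genes were called higher and 516 lower. In LP1, as a description, 6 members lay below 0, 7 with the replicate block.

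Members called in LP1 minus AMO1 were 2 in the main fit, 4 with library size only, 1 in the gN1E libraries alone (RNU4ATAC -0.77, adjusted p 0.00299, while RNU11 was not called at -0.85, adjusted p 0.244) and 1 to 4 when each library was left out. Of all genes, 75.9% were called in the main fit. With library size only 8516 genes were called higher and 11796 lower, and in the gN1E libraries alone 8730 and 8437. With each library left out, 19637 to 20054 genes were called. In LP1 minus H929 the members called were 1, and 1 to 2 with each library left out, beside 19732 genes and 19234 to 19767.

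The direction reversed in these fits. By label in H929, RNU11 was 0.16 with limma-voom. In H929 minus AMO1 with the SCR libraries alone, RNU5A-1 was 0.52, RNU5B-1 0.38, RNU4-1 0.0767, RNU4-2 0.29, RNU4ATAC 0.19 and RNU6ATAC 0.0243. Without the 3 libraries of highest summed members, added after the data were seen, RNU5A-1 was 0.32, RNU5B-1 0.21, RNU4-2 0.14, RNU4ATAC 0.0112 and RNU6ATAC 0.00976 in H929 minus AMO1. In LP1 minus AMO1 without those 3, RNU5A-1 was 0.15, RNU4-2 0.000285 and RNU6ATAC 0.00803. In the interaction without those 3, RNU4-1 was 0.28, RNU4-2 0.21, RNU6ATAC 0.24 and RNU11 -0.13.

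Leaving out 1 library at a time also reversed members. By label in AMO1, RNU5A-1 ran from -0.83 to 0.56, RNU5B-1 from -0.80 to 0.42, RNU4-1 from -1.07 to 0.17 and RNU4-2 from -1.03 to 0.16, and in H929 RNU11 ran from -0.67 to 0.10. In H929 minus AMO1, RNU5A-1 ran from -0.37 to 0.32, RNU5B-1 from -0.41 to 0.26, RNU4-1 from -0.71 to 0.0596, RNU4-2 from -0.45 to 0.27, RNU4ATAC from -0.18 to 0.0663 and RNU6ATAC from -0.61 to 0.0718. In the interaction, RNU4-1 ran from -1.26 to 0.10, RNU4-2 from -1.22 to 0.11, RNU6ATAC from -1.12 to 0.11 and RNU11 from -0.27 to 0.50.

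All genes called by label were 473 in AMO1, 1394 with the replicate block and 808 with no filter on low counts. Leaving out 1 library at a time, they ran from 254 to 606 in AMO1, from 701 to 1272 in H929 (1286 with all libraries) and from 87 to 780 in LP1. In LP1 they were 332, with 512 by DESeq2 and 700 with no filter. With library size only, the share of calls that were higher moved from 79.7% to 51.2% in AMO1, from 67.7% to 42.8% in H929 and from 45.8% to 63.8% in LP1.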
